A study of Arabidopsis thaliana with 9 samples.

Results

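Transcript levels in cop1-6 mutant seedlings were compared with those in wild-type seedlings (Col_0, the standard laboratory strain) of Arabidopsis thaliana late at night. The comparison used 6 of the 9 libraries of the study, 3 labelled cop1-6 and 3 labelled wild type, and all genes measured in them. Both groups were whole seedlings 7 days old under short days, collected at zeitgeber time 20 (hours since dawn), and the labels give no treatment or transgene for either. The other 3 libraries, of the cor27cor28 mutant, entered the statistical model for its estimate of the spread between replicates and nothing else. The cop1-6 allele is a weak, viable allele of COP1. COP1 itself was not analysed here, so its transcript could not serve as a check of the labels.

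COP1 is the ubiquitin ligase that, with SPA proteins, marks light-signalling transcription factors such as HY5 for degradation in darkness. Loss of its function lets seedlings develop in the dark much as they do in light, with short hypocotyls, open cotyledons and anthocyanin. Transcripts of light signalling, photosynthesis, flavonoids, the clock, auxin, shade and the cell wall make up the large known sets, and 634 measured genes were assigned to them. The account below is mostly about other genes, ordered by the role of each group: energy and redox metabolism, lipids, the cytoskeleton and wall, tissues, and hormones. Genes of the known sets were not removed from the counts of gene groups. Runs of neighbouring genes and the largest shares of the FPKM sum also include auxin and photosynthesis genes.

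FPKM (fragments per unit length of transcript and per unit of mapped fragments) summed to between 515929 and 532655 in the cop1-6 libraries and between 584878 and 612462 in the wild-type libraries. Across genes, log2(FPKM + 1) correlated at r = 0.978 to 0.989 among cop1-6 libraries, at 0.988 to 0.991 among wild-type libraries and at 0.931 to 0.948 between the groups, and genes are not independent replicates. The cop1-6 replicate 3 stood apart: 283 genes, 1.66% of those tested, were at least 2 times as high in it as in both other cop1-6 libraries. The same count was between 24 and 74 in each of the other 8 libraries of the study. Results that rest on replicate 3 are therefore given with and without it. The read depth of the libraries is not known from FPKM. The smallest steps between low values put the relative depth of the cop1-6 libraries at 0.967 to 1.01 and that of the wild-type libraries at 0.968 to 1. The labels do not say whether replicates came from separate cultures, so p-values measure the spread between these libraries, which may be technical.

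Of 17075 genes tested, 1865 (10.9%) were higher and 3500 (20.5%) were lower in cop1-6 than in wild type. Genes changed at least 2-fold numbered 442 higher (2.59%) and 518 lower (3.03%). A gene counted as called only where limma's test on log2(FPKM + 1) gave a Benjamini-Hochberg adjusted p under 0.05 in the same direction under 3 scalings of the libraries: the deposited values, median-of-ratios and equal totals. The scaling matters for the balance of directions. Over all tested genes the median log2 fold change was -0.21 with deposited values, 0.01 with median-of-ratios and -0.05 with equal totals, so each fold change below, which uses the deposited values, is to be read against -0.21. With the deposited values alone 1865 genes were higher and 6583 lower, and with median-of-ratios alone 3804 were higher and 3505 lower. Without cop1-6 replicate 3, 1600 genes were higher and 3116 lower, and these included 1550 and 2893 of the genes called with all libraries. For 9765 genes (57.2%) the cop1-6 values did not overlap the wild-type values, in either direction. Lack of overlap in genes named below, most of them called, is to be read against this share. In whole seedlings, fewer cells of a type and less RNA per cell cannot be told apart.

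**Figure D1:**
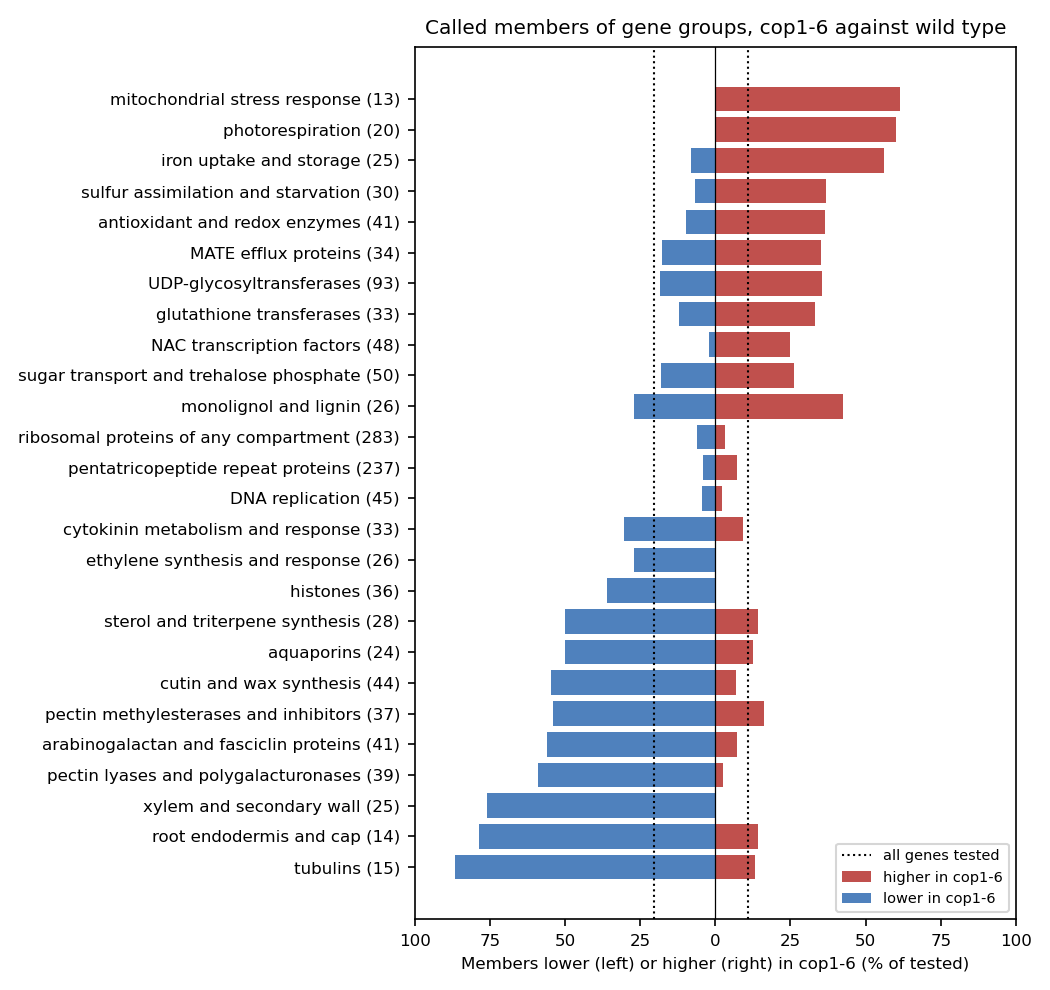
Share of the tested members of each gene group (number tested in parentheses) that were called higher in cop1-6 (right) or lower in cop1-6 (left) than in wild type; dotted lines mark the shares over all genes tested, 10.9% and 20.5%. Of the groups drawn, mitochondrial stress, photorespiration and iron genes lie at the top with 56% or more of members higher, and tubulins, root endodermis and xylem genes at the bottom with 76% or more of members lower.

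Genes of the mitochondrial stress response were among those that rose in cop1-6. When electron transport in plant mitochondria is impaired, alternative NAD(P)H dehydrogenases and alternative oxidase, which bypass the proton-pumping complexes, are induced through NAC transcription factors held at the endoplasmic reticulum until they are released. Of 13 tested members of a list of such genes (17 measured), 8 rose, 4 of them at least 2-fold, and none fell. Over the list the median log2 fold change was 0.74, against -0.21 for all tested genes. Of those 13 genes, 3 were under 1 FPKM in all wild-type libraries and passed the minimum only through other libraries. NDA1 (AT1G07180), which encodes an alternative NAD(P)H dehydrogenase of the inner membrane, had 89.3, 69.004 and 73.03 FPKM in cop1-6, against 7.54, 6.33 and 8.36 FPKM in wild type. Every cop1-6 library stood far above every wild-type library (log2 fold change 3.21 ± 0.13 SE, adjusted p = 3.42e-09), and the ratio of means was 10.4. UGT74E2, a glucosyltransferase of indole-3-butyric acid and a widely used marker of this response, had 28.8, 15.3 and 32.97 FPKM in cop1-6, against 0.545, 2.11 and 2.49 FPKM in wild type (log2 fold change 3.31 ± 0.30 SE, adjusted p = 2.65e-06). AOX1A, the main stress-induced alternative oxidase, had 40.6, 27.9 and 40.4 FPKM in cop1-6, against 8.41, 12.9 and 9.88 FPKM in wild type (log2 fold change 1.71 ± 0.16 SE, adjusted p = 3.2e-06). The groups did not overlap for either gene, although cop1-6 replicate 2 was the lowest of its group for both.

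Other members rose by less. BCS1, an AAA ATPase of the mitochondrial outer membrane in Arabidopsis and a marker of the response, had 2.91, 2.33 and 4.58 FPKM in cop1-6, against 0.327, 0.846 and 0.521 FPKM in wild type. SOT12, a sulfotransferase, had a log2 fold change of 0.96, NDB2, an external NAD(P)H dehydrogenase, of 0.70, its relative NDB4 of 0.74 and the dicarboxylate carrier DIC2 of 0.84. The call of DIC2 was lost without cop1-6 replicate 2 or 3 or wild-type replicate 1 or 3 (log2 fold changes 0.64 to 0.83), and NDB4 could not be tested without cop1-6 replicate 3. The members that were not called include AOX1C (0.483, 0.598 and 0.758 FPKM in cop1-6, against 0.638, 0.421 and 0.9702 FPKM in wild type) and NDA2 (log2 fold change -0.14). MSS1, a hexose carrier, was not called (log2 fold change 0.68) but was without cop1-6 replicate 2 (0.97). Among the transcription factors of the response, NAC13 rose: it had 14.8, 13.6 and 14.9 FPKM in cop1-6, against 5.23, 4.45 and 4.98 FPKM in wild type (log2 fold change 1.39 ± 0.12 SE, adjusted p = 2.06e-06). NAC017, the membrane-bound factor that starts the response, was not called, with 17.76, 16.6 and 21.8 FPKM in cop1-6, against 25.35, 28.1 and 25.29 FPKM in wild type. UCP5, an uncoupling protein, was likewise not called (4.45, 4.58 and 7.88 FPKM in cop1-6, against 7.36, 8.404 and 7.82 FPKM in wild type). Without cop1-6 replicate 3 the list had 6 members higher and 2 lower, namely NAC017 (log2 fold change -0.58) and UCP5 (-0.68).

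These NAC factors are known to bind the mitochondrial dysfunction motif, CTTG followed 5 bases later by CAAG, which reads the same on both strands. It was searched on both strands in promoters, taken as 250 bases before to 50 after the annotated gene start in RefSeq's TAIR10.1 assembly. Among genes at least 2-fold higher in cop1-6 it was found in 16 of 442 promoters (3.62%), among genes at least 2-fold lower in 1 of 518 (0.193%), and among all tested genes in 104 of 17075 (0.609%). With calls made without cop1-6 replicate 3, an alternative chosen after seeing the data, it was in 16 of 380 (4.21%) and 2 of 513 (0.39%). Of all 104 tested genes with the motif, 34 (32.7%) were called higher and 12 (11.5%) lower, with a median log2 fold change of 0.06. The 29 bases around the motif are shown for 8 of the 16 genes, those with the largest fold changes, because they carry this comparison. They are written 5′ to 3′ on the strand of the gene, with the motif in capitals, and were chosen after their values were seen.
AT2G04050 (chr2:1339663-1339691, minus strand), distal site: tattagaaCTTGATTCCCAAGtaatcttt
AT2G04050 (chr2:1339604-1339632, minus strand), proximal site: tatacgaaCTTGGTCCCCAAGtatatttc
NDA1 (chr1:2204026-2204054, plus strand): tgtcgtttCTTGCGCATCAAGttctgctg
AT4G12735 (chr4:7494323-7494351, minus strand): ttattaagCTTGGCCGCCAAGttataatg
SRO2 (chr1:8350689-8350717, plus strand): acaaaaatCTTGTCGTGCAAGcagaaaag
AOX1A (chr3:7906537-7906565, plus strand): tcttccatCTTGCTCTCCAAGaaaaatct
AT4G08555 (chr4:5447922-5447950, plus strand): atcaatccCTTGGTTTCCAAGcaaatata
AT5G24640 (chr5:8436264-8436292, plus strand): attaatttCTTGGTGGACAAGcatgtttg
AT1G17960 (chr1:6183852-6183880, minus strand): ctctaaagCTTGGCCCGCAAGtcacttta
A match is a description of these letters and not evidence of a bound site. The AOX1A match began at position 25 from the annotated start and the NDA1 match at position -70.

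AT2G04050, a MATE-family efflux transporter gene, was the gene with 2 matches, which began at positions -215 and -156 from its start. It had 84.9, 35.3 and 77.9 FPKM in cop1-6, against 3.12, 5.81 and 8.37 FPKM in wild type (log2 fold change 3.29 ± 0.33 SE, adjusted p = 6.62e-06). Its neighbour DTX1 (AT2G04040), a near-identical MATE gene, had 64.2, 35.7 and 79.2 FPKM in cop1-6, against 4.52, 10.09 and 12.2 FPKM in wild type, and reads of the pair may have been split between them, so the level of each is uncertain. The 250 bases before the start of AT2G04050 and of NDA1 are given in full, with the motif in capitals, since these had the largest log2 fold changes of the 16, with ratios of means of 11.4 and 10.4.
AT2G04050 (chr2:1339469-1339718, minus strand): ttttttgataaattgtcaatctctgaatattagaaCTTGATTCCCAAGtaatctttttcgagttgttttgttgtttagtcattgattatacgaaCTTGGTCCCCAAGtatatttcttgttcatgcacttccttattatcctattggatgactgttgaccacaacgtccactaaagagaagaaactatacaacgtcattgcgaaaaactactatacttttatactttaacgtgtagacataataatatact
NDA1 (chr1:2203854-2204103, plus strand): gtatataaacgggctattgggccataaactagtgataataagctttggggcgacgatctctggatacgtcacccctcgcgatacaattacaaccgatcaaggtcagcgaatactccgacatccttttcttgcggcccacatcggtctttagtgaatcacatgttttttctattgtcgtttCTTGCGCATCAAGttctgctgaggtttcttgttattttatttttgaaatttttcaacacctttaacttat
The other genes of the set were of varied kinds. AT4G12735, an uncharacterized gene, had 15.7, 10.5 and 21.1 FPKM in cop1-6, against 1.26, 1.75 and 2.64 FPKM in wild type. SRO2, a relative of the stress regulator RCD1, had 6.07, 5.59 and 8.07 FPKM in cop1-6, against 0.496, 0.542 and 0.8296 FPKM in wild type. CYP81D8, a cytochrome P450, had 9.15, 7.24 and 13.9 FPKM in cop1-6, against 2.005, 4.48 and 3.06 FPKM in wild type, and NAC044, a NAC factor of the DNA damage response, had 10.3, 3.604 and 8.05 FPKM in cop1-6, against 1.27, 3.001 and 2.697 FPKM in wild type. In all 4 genes every cop1-6 library was above every wild-type library. ADH1, alcohol dehydrogenase, was highest in replicate 3, with 3.51, 2.68 and 20.2 FPKM in cop1-6, against 1.71, 1.75 and 1.43 FPKM in wild type. Its call was lost on leaving out any 1 wild-type library (log2 fold changes 1.37 to 1.46), and without cop1-6 replicate 3 it was called with a log2 fold change of 0.63, under 2-fold. The single holder of the motif among genes at least 2-fold lower was AT1G55673, uncharacterized, with 0.4097, 0.111 and 0.687 FPKM in cop1-6, against 5.38, 1.42 and 3.21 FPKM in wild type.

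**Figure D2:**
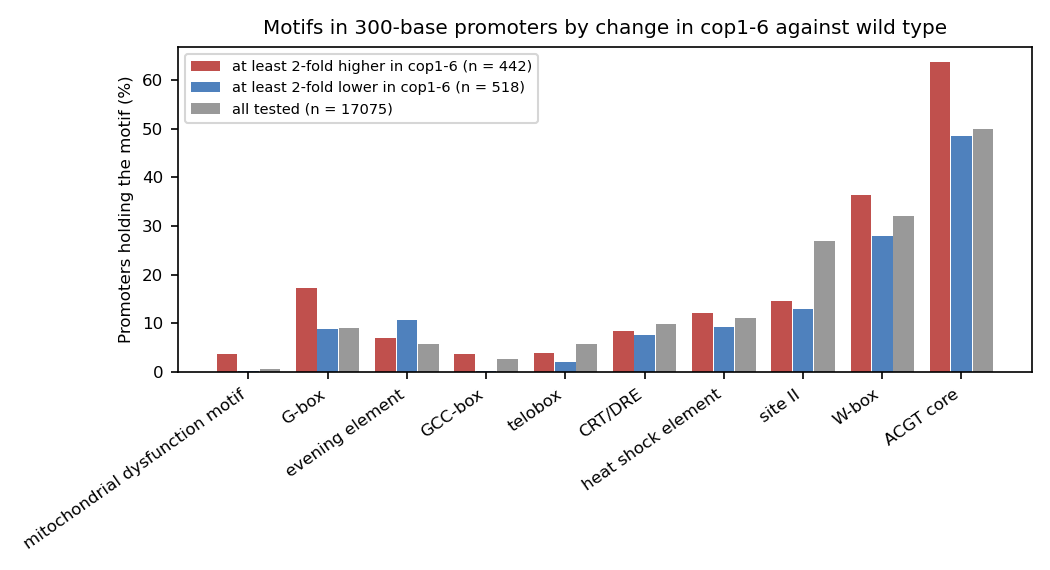
Share of promoters (250 bases before to 50 after the gene start) that hold each motif, for genes at least 2-fold higher in cop1-6, genes at least 2-fold lower in cop1-6 and all tested genes. The mitochondrial dysfunction motif was found in 3.62%, 0.193% and 0.609% and the G-box in 17.2%, 8.88% and 8.97%.

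Of the other motifs searched, the G-box CACGTG, bound by bZIP and bHLH factors that include HY5 and the PIFs, was in 76 of 442 promoters of genes at least 2-fold higher (17.2%), in 46 of 518 of those at least 2-fold lower (8.88%) and in 1532 of all tested (8.97%). Outside the light, auxin and related sets the shares were 16.5% (68 of 413) and 8.68% (40 of 461). Of all 1532 genes with a G-box, 224 (14.6%) were called higher and 298 (19.5%) lower. The core ACGT, part of every G-box, was in 63.6%, 48.6% and 50% of the promoters of higher, lower and all tested genes. The evening element AAATATCT, which many evening-phased genes carry, was in 7.01% of the promoters of genes at least 2-fold higher, 10.6% of those at least 2-fold lower and 5.86% of all. Site II elements (TGGGCC or TGGGCT), common in genes of growth and translation, were in 14.7%, 12.9% and 26.9%. The telobox AAACCCTA was in 3.85%, 2.12% and 5.73%, the W-box (TTGACC or TTGACT) in 36.4%, 28% and 32%, the heat shock element GAANNTTC in 12.2%, 9.27% and 11.1%, and the CRT/DRE element (ACCGAC or GCCGAC) in 8.37%, 7.72% and 9.9%. The GCC-box GCCGCC, bound by ethylene response factors, was in 3.62%, 0.193% and 2.68%. With calls made without cop1-6 replicate 3 it was in 2.37% of the higher and 0.39% of the lower genes. The shares of the other 8 motifs were each within 1.5 times the value given when replicate 3 was left out. A G-box is shown for 2 genes of high fold change and an evening element for CCL, one of the genes that fell most, each in capitals within 30 bases on the strand of the gene.
ERD9, G-box (chr1:3398447-3398476, minus strand): acccgtttaataCACGTGtcaacctataat
SIP2, G-box (chr3:21293214-21293243, minus strand): gtaataatatgaCACGTGgcaacatcgcaa
CCL, evening element (chr3:9827579-9827608, plus strand): tatcctttaaaAAATATCTtcttccttttg

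Photorespiration genes rose together, led by the glycine decarboxylase P proteins. Photorespiration recycles the glycolate that Rubisco makes when it takes oxygen, through enzymes of the chloroplast, peroxisome and mitochondrion, and in leaves it runs by day. Of 20 members, all tested, 12 rose and none fell, and the median log2 fold change was 0.46, against -0.21 for all tested genes. The same 12 and 0 were counted without cop1-6 replicate 3. GLDP2, the P protein of mitochondrial glycine decarboxylase, had 414, 365 and 356 FPKM in cop1-6, against 101, 89.6 and 98.1 FPKM in wild type (log2 fold change 1.97 ± 0.08 SE, adjusted p = 3.67e-09). Its homologue GLDP1 had 963, 897 and 804 FPKM in cop1-6, against 313, 289.9 and 317 FPKM in wild type (log2 fold change 1.53 ± 0.08 SE, adjusted p = 3.2e-08). No library of cop1-6 came near the wild-type range for either. Smaller rises were seen for HPR, peroxisomal hydroxypyruvate reductase (log2 fold change 0.77), for the dicarboxylate transporter DIT2.1 (0.85), for serine hydroxymethyltransferase SHM1 (0.56) and for glycolate oxidase GOX2 (0.60). PGLP1, phosphoglycolate phosphatase, was not called (6.22, 5.43 and 5.54 FPKM in cop1-6, against 4.66, 3.96 and 6.09 FPKM in wild type).

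Genes of iron uptake and storage also rose. Plants reduce ferric iron at membranes with FRO enzymes, move it as nicotianamine chelates through YSL and OPT transporters, store it in ferritin and regulate uptake through bHLH factors and the E3 ligase BTS. Of 25 tested members of the iron list (35 measured), 14 rose, 6 of them at least 2-fold, and 2 fell. The median log2 fold change was 0.54. Among the 25, 2 were under 1 FPKM in all wild-type libraries and 1 in all cop1-6 libraries. FRO6, a ferric reductase of leaf cell membranes, had 65.2, 47.4 and 63.7 FPKM in cop1-6, against 19.3, 17.79 and 21.2 FPKM in wild type (log2 fold change 1.54 ± 0.12 SE, adjusted p = 7.39e-07), and its chloroplast relative FRO7 had 43.8, 35.99 and 36.6 FPKM in cop1-6, against 17.38, 16.4 and 19.1 FPKM in wild type (log2 fold change 1.09). FER2, the ferritin of seeds, had 6.41, 5.27 and 6.51 FPKM in cop1-6, against 0.989, 0.868 and 1.103 FPKM in wild type (log2 fold change 1.83), whereas the ferritins FER3 and FER4 were not called, with log2 fold changes of -0.21 and -0.20. In all these genes that rose, the groups did not overlap. The iron-deficiency regulator bHLH38 had 2.61, 11.7 and 0.429 FPKM in cop1-6, against 0.168, 0.156 and 0 FPKM in wild type and bHLH39 had 1.64, 6.92 and 1.097 FPKM in cop1-6, against 0.0962, 0.186 and 0 FPKM in wild type. In both, replicate 2 was several times as high as the other cop1-6 libraries, and bHLH39 could not be tested without replicate 3. The call of bHLH38 was lost without wild-type replicate 3 (log2 fold change 1.79). The transporter genes YSL2 and OPT3 had log2 fold changes of 0.98 and 0.60, and the ligase gene BTS of 0.56. The plasma membrane proton pump HA2 fell (log2 fold change -0.61), as did AT3G25190, a vacuolar iron transporter-like gene (-0.86). The call of HA2 was lost on leaving out any 1 library except cop1-6 replicate 3 (-0.64 to -0.49), and that of AT3G25190 without cop1-6 replicate 2 or wild-type replicate 1 or 3 (-0.80 to -0.70).

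**Figure D3:**
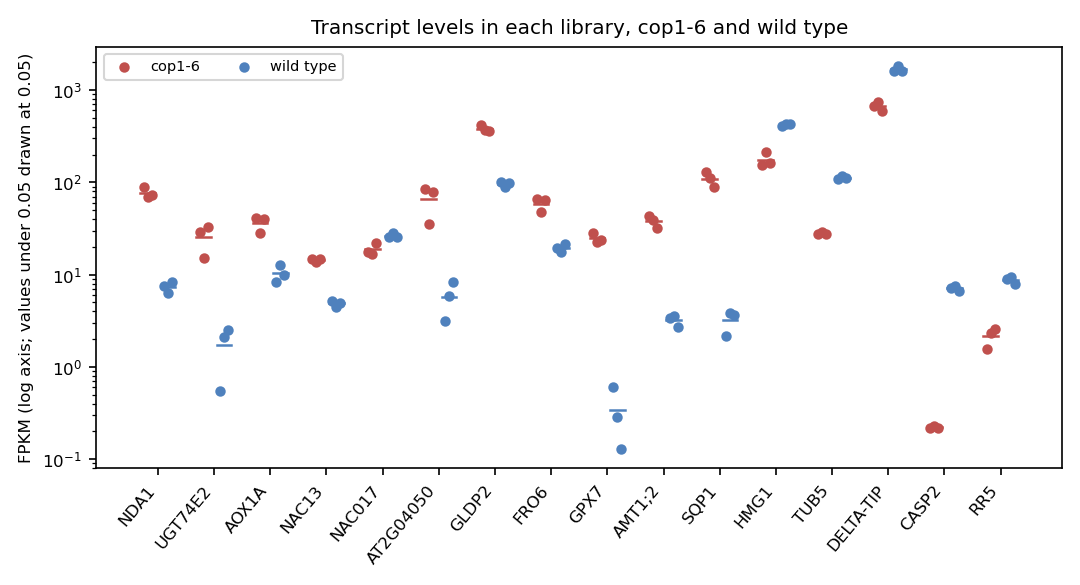
FPKM of 16 genes in each cop1-6 library (left) and each wild-type library (right) on a log axis; points are libraries and short lines the group means. For the genes drawn from NDA1 to SQP1, all but NAC017 have every cop1-6 library above every wild-type library, and from HMG1 to RR5 every cop1-6 library is below.

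Redox and detoxification genes moved more often up than down. Of 41 tested antioxidant and redox genes 15 rose and 4 fell, with a median log2 fold change of 0.04. The number that fell was 2 on leaving out cop1-6 replicate 1 or 2 or wild-type replicate 1 or 2, and 13 with the deposited scaling alone. GPX7, a chloroplast glutathione peroxidase-like enzyme, had 28.2, 22.7 and 23.7 FPKM in cop1-6, against 0.599, 0.287 and 0.129 FPKM in wild type (log2 fold change 4.28 ± 0.16 SE, adjusted p = 2.12e-09) and passed the minimum of 1 FPKM only through libraries other than wild type. In the pathway of tocopherol, the lipid antioxidant of plastids, VTE1 (tocopherol cyclase) had 34.8, 31.9 and 30.7 FPKM in cop1-6, against 7.91, 7.89 and 8.34 FPKM in wild type and PDS1 (4-hydroxyphenylpyruvate dioxygenase) had 85.9, 83.95 and 90.5 FPKM in cop1-6, against 40.9, 36.7 and 40.3 FPKM in wild type. CYT1, which makes GDP-mannose for ascorbate and walls, fell (log2 fold change -0.70). The glutathione transferase list had 11 of 33 tested members higher and 4 lower, but 9 and 7 without cop1-6 replicate 3 and 7 lower without wild-type replicate 1. With median-of-ratios alone 17 were higher, and with the deposited scaling alone 8 were lower. ERD9, one of these enzymes, had 71.7, 53.9 and 64.3 FPKM in cop1-6, against 6.77, 7.36 and 7.27 FPKM in wild type (log2 fold change 2.97 ± 0.10 SE, adjusted p = 1.54e-09). Of 34 MATE efflux genes 12 rose and 6 fell, and of 93 UDP-glycosyltransferases 33 rose and 17 fell, 32 with the deposited scaling alone. Among the 93, 8 were under 1 FPKM in all wild-type libraries and 3 in all cop1-6 libraries, and passed the minimum only through other libraries. Of these glycosyltransferases UGT73C1 had a log2 fold change of 2.88 and UGT73C6, which glucosylates flavonols, had 12.8, 9.56 and 15.01 FPKM in cop1-6, against 1.101, 1.44 and 0.917 FPKM in wild type, and these neighbours are similar in sequence. NAC factors had 12 of 48 members higher and 1 lower, but 7 and 5 without replicate 3 and 6 lower with the deposited scaling alone. Among the 48, 4 were under 1 FPKM in all wild-type libraries and 1 in all cop1-6 libraries.

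In sulfur, nitrogen and carbon metabolism single steps moved strongly. The sulfur list had 11 of 30 members higher and 2 lower, or 6 lower with the deposited scaling alone (median log2 fold change 0.24). APR2, the main adenylyl-sulfate reductase, had 247, 284 and 231 FPKM in cop1-6, against 98.7, 127 and 92.3 FPKM in wild type (log2 fold change 1.26 ± 0.13 SE, adjusted p = 6.59e-06), and APS1, the ATP sulfurylase before it, had 152, 158 and 155 FPKM in cop1-6, against 106, 128 and 112 FPKM in wild type (log2 fold change 0.43). The vascular sulfate transporter SULTR2;1 fell, with 13.4, 16.3 and 11.9 FPKM in cop1-6, against 39.9, 37.7 and 46.1 FPKM in wild type. AMT1;2, a high-affinity ammonium transporter, had 42.8, 38.8 and 32.3 FPKM in cop1-6, against 3.42, 3.53 and 2.701 FPKM in wild type (log2 fold change 3.20 ± 0.16 SE, adjusted p = 2.44e-08). It was the one member of the nitrogen list past 2-fold: of 33 tested members 9 were higher and 5 lower, and 6 and 5 when cop1-6 replicate 3 was left out. Without wild-type replicate 1 it had 5 higher, and 3 lower without cop1-6 replicate 2 or wild-type replicate 2 and 2 without wild-type replicate 3. With median-of-ratios alone 18 were higher, and with the deposited scaling alone 10 were lower. GLU1, the glutamate synthase that refixes photorespiratory ammonium, had 549, 457 and 468 FPKM in cop1-6, against 289, 256 and 289.5 FPKM in wild type, and NIR1, nitrite reductase, had 588, 406 and 487 FPKM in cop1-6, against 285, 335 and 313 FPKM in wild type. The dark-induced asparagine synthetase ASN1 fell, with 3.72, 5.42 and 4.02 FPKM in cop1-6, against 10.05, 8.58 and 7.88 FPKM in wild type.

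Single starch and sugar genes changed in both directions. GBSS1, the starch synthase that makes amylose, had 72.5, 67.7 and 54.4 FPKM in cop1-6, against 11.6, 11.7 and 11.1 FPKM in wild type (log2 fold change 2.39 ± 0.12 SE, adjusted p = 1.79e-08), and BMY3, a beta-amylase of plastids, had 212, 198 and 190.0 FPKM in cop1-6, against 67.4, 65.3 and 71.8 FPKM in wild type (log2 fold change 1.54 ± 0.07 SE, adjusted p = 1.23e-08). The cytosolic phosphorylase PHS2, which takes up sugar from starch breakdown, fell, with 5.35, 4.48 and 5.62 FPKM in cop1-6, against 15.4, 16.7 and 19.3 FPKM in wild type, and the disproportionating enzymes DPE1 and DPE2 fell with log2 fold changes of -1.14 and -0.63. In all, 8 of 30 starch genes rose, 4 without cop1-6 replicate 1, and 5 fell. The sucrose-phosphate synthase gene ATSPS4F had 55.1, 41.97 and 44.6 FPKM in cop1-6, against 9.72, 8.67 and 9.63 FPKM in wild type, and SIP2, a raffinose-family galactosidase, had 109, 79.1 and 90.2 FPKM in cop1-6, against 17.3, 17.9 and 18.4 FPKM in wild type. SWEET2, a vacuolar sugar carrier, rose to 109 ± 4.42 FPKM in cop1-6, against 43.7 ± 4.75 FPKM in wild type (SD, n = 3 each). SUC2, which loads sucrose into the phloem, fell to 41.5 ± 3.703 FPKM in cop1-6, against 69.5 ± 2.86 FPKM in wild type. Of 50 sugar transport and trehalose phosphate genes 13 rose and 9 fell. The shares that fell, 16.7% of starch and 18% of sugar genes, were near or below the 20.5% of all genes. With median-of-ratios alone 14 starch and 23 sugar genes were higher, and with the deposited scaling alone 9 and 14 were lower.

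Squalene epoxidase-like genes on chromosome 5 rose, while several genes of the sterol pathway fell. Sterols are made from mevalonate through farnesyl diphosphate and squalene, whose epoxide is cyclized. SQP1 (AT5G24150), AT5G24155 and SQE6 (AT5G24160) lie side by side on the minus strand of chromosome 5 between 8172300 and 8186704 in TAIR10.1, and are squalene monooxygenase-like genes. They formed the only run of 3 or more neighbouring genes that rose at least 2-fold. SQP1 had 129, 112 and 89.1 FPKM in cop1-6, against 2.17, 3.801 and 3.696 FPKM in wild type (log2 fold change 4.73 ± 0.19 SE, adjusted p = 4.49e-09), a ratio of means of 34.1. AT5G24155 had 13.01, 13.05 and 14.7 FPKM in cop1-6, against 1.81, 1.41 and 1.32 FPKM in wild type and SQE6 had 20.9, 14.3 and 28.9 FPKM in cop1-6, against 3.63, 4.403 and 4.22 FPKM in wild type. The groups did not overlap for any of the 3 genes, which are similar copies, so reads shared among them make the separate levels uncertain. SQE3, elsewhere in the genome, had 88.02, 82.9 and 82.6 FPKM in cop1-6, against 22.7, 22.99 and 26.1 FPKM in wild type.

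Of 28 tested sterol and triterpene genes 4 rose, all of them squalene monooxygenase-like, and 14 fell. Without cop1-6 replicate 3 the counts were 3 and 9, and without wild-type replicate 2 the number that fell was 9. HMG1, the HMG-CoA reductase that sets the pace of the mevalonate pathway, had 153, 214 and 162 FPKM in cop1-6, against 405, 424 and 425 FPKM in wild type (log2 fold change -1.26 ± 0.11 SE, adjusted p = 1.67e-06). DWF1, a late enzyme of brassinosteroid precursor synthesis, had 71.9, 95.97 and 69.4 FPKM in cop1-6, against 174, 186 and 161 FPKM in wild type, HYD1, a sterol isomerase, had 36.5, 38.04 and 37.2 FPKM in cop1-6, against 75.6, 84.01 and 67.6 FPKM in wild type, and farnesyl diphosphate synthase FPS1 had 23.3, 24.7 and 20.6 FPKM in cop1-6, against 42.04, 39.4 and 38.3 FPKM in wild type. Cyclization and methylation were mixed: SMT1 fell (log2 fold change -0.66), while the cycloartenol synthase CAS1 was not called (24.4, 22.3 and 22.3 FPKM in cop1-6, against 30.4, 29.5 and 30.3 FPKM in wild type). Transcripts of surface lipid genes fell as well. Of 44 tested cutin and wax genes 24 fell, none of them 2-fold under all scalings, and 3 rose, 1 without cop1-6 replicate 1 or wild-type replicate 1. With the deposited scaling alone 37 were lower. Their median log2 fold change was -0.59. GPAT8, an acyltransferase of cutin, had 19.2, 23.9 and 19.01 FPKM in cop1-6, against 44.7, 46.4 and 51.1 FPKM in wild type. The fatty acid hydroxylase CYP86A2 had 42.99, 38.8 and 40.4 FPKM in cop1-6, against 74.6, 79.7 and 83.9 FPKM in wild type, and KCS8, a fatty acid elongase, had a log2 fold change of -1.12. CER3, needed for wax alkanes, rose (log2 fold change 0.47). The lipid transfer protein gene LP1 fell to 641 ± 7.53 FPKM in cop1-6, against 1640.3 ± 329 FPKM in wild type.

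Tubulin genes fell almost as a family. Alpha and beta tubulin form the microtubules that guide cellulose deposition and divide cells. The family was taken by annotation words, and whether each member encodes a tubulin was not checked. All 15 genes so annotated were tested. Of these 13 fell, 6 of them at least 2-fold, and 2 rose, with a median log2 fold change of -1.10. With median-of-ratios scaling the median was -0.85. TUB5 had 27.7, 28.7 and 27.2 FPKM in cop1-6, against 109.7, 116 and 112 FPKM in wild type (log2 fold change -1.98 ± 0.07 SE, adjusted p = 2.3e-09). TUB4 had 101, 101 and 99.7 FPKM in cop1-6, against 251, 265 and 245 FPKM in wild type, TUB9 had 31.5, 34.6 and 34.3 FPKM in cop1-6, against 81.41, 81.35 and 82.4 FPKM in wild type and TUB6 had 54.9, 50.1 and 47.2 FPKM in cop1-6, against 129, 129.9 and 115 FPKM in wild type. For these 4 beta tubulins each cop1-6 library was more than 2-fold below every wild-type library. TUB1, lower in abundance, had 2.56, 2.04 and 2.08 FPKM in cop1-6, against 9.57, 10.2 and 7.89 FPKM in wild type (log2 fold change -1.66), and among the alpha tubulins TUA5 had 63.9, 61.4 and 60.2 FPKM in cop1-6, against 132, 136 and 134 FPKM in wild type (log2 fold change -1.10). The call of TUB2 was lost without cop1-6 replicate 1 or 3 or wild-type replicate 1 (log2 fold changes -0.56 to -0.52). The 2 that rose were TUA1, with 39.9, 43.3 and 42.997 FPKM in cop1-6, against 33.995, 38.1 and 36.6 FPKM in wild type, whose call was lost without cop1-6 replicate 2 or 3 or wild-type replicate 1 or 3 (log2 fold changes 0.17 to 0.22), and AT1G50020, which the annotation names tubulin alpha-6 chain, with 104, 92.9 and 111 FPKM in cop1-6, against 62.1, 61.6 and 56.7 FPKM in wild type. TUB2 and TUB3, TUA2 and TUA4, and TUA3 and TUA5 are near-identical copies whose reads can be split between them, so single values within these pairs are uncertain. Without cop1-6 replicate 3, 12 fell and 1 rose. Histones, whose genes are active in dividing cells, had 13 of 36 lower and none higher, with 8 lower without cop1-6 replicate 3 and 6 without wild-type replicate 2. With the deposited scaling alone 27 histones were lower, and with equal totals alone 22.

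**Figure D4:**
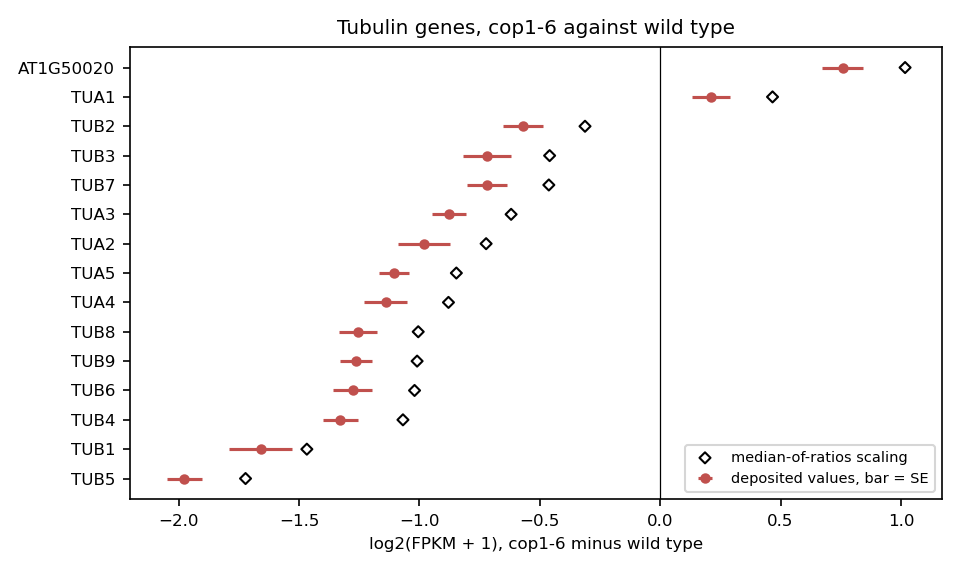
Difference in log2(FPKM + 1) between cop1-6 and wild type for all 15 genes annotated as tubulins, with the deposited values (filled, bar is 1 SE) and with median-of-ratios scaling (open). TUB5 is lowest at -1.98 and AT1G50020 highest at 0.76, and 13 of 15 genes lie below 0 under both scalings.

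Pectin, arabinogalactan and water channel genes followed the same direction. Pectin lyases and polygalacturonases, which cut pectin, had 23 of 39 tested members lower and 1 higher (2 without cop1-6 replicate 3), and pectin methylesterases with their inhibitors had 20 of 37 lower and 6 higher. The number higher was 3 without cop1-6 replicate 1 or wild-type replicate 3 and 2 without wild-type replicate 1. Among the 37, 4 were under 1 FPKM in all cop1-6 libraries and 1 in all wild-type libraries. Arabinogalactan and fasciclin proteins of the cell surface had 23 of 41 lower and 3 higher. The median log2 fold changes were -0.69, -0.71 and -0.66. ATPMEPCRD, a pectin methylesterase, had 0.295, 0.2196 and 0.273 FPKM in cop1-6, against 9.88, 11.8 and 12.4 FPKM in wild type (log2 fold change -3.29 ± 0.12 SE, adjusted p = 1.81e-09). AT3G07010, a pectin lyase, had 5.14, 3.703 and 4.81 FPKM in cop1-6, against 26.4, 24.4 and 27.8 FPKM in wild type, and AGP7 had 13.9, 18.4 and 17.39 FPKM in cop1-6, against 77.4, 73.3 and 73.9 FPKM in wild type. Of 24 tested aquaporins 12 fell, 5 at least 2-fold, and 3 rose. DELTA-TIP, the vacuolar water channel, had 677, 741 and 599.6 FPKM in cop1-6, against 1612, 1814 and 1589 FPKM in wild type (log2 fold change -1.32 ± 0.09 SE, adjusted p = 3.09e-07), and TIP2, another vacuolar channel, had 1014, 987 and 936 FPKM in cop1-6, against 2164, 2300.4 and 1997 FPKM in wild type. The plasma membrane channels PIP1;5 and PIP2B had log2 fold changes of -1.31 and -1.37. The same family held members that rose, PIP1A with 153, 122 and 137 FPKM in cop1-6, against 80.6, 88.9 and 81.96 FPKM in wild type and RD28 with 45.1, 49.99 and 45.7 FPKM in cop1-6, against 31.8, 29.4 and 28.5 FPKM in wild type, and others that were not called, such as PIP2A with 715, 637 and 608 FPKM in cop1-6, against 624, 711 and 592 FPKM in wild type. Members of the PIP subfamily are similar in sequence, and their reads may be split.

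Casparian strip genes of the root endodermis were low in cop1-6. The endodermis seals the root stele with the Casparian strip, a lignin band placed by CASP membrane proteins under the factor MYB36. All 7 endodermis markers were lower, and their summed level was 2.66 to 3.14 FPKM in the cop1-6 libraries and 38.5 to 47.6 FPKM in the wild-type libraries. CASP5 was listed at 0 in every cop1-6 library, and 6 of the 7 were under 1 FPKM in all of them, so these genes passed the minimum through other libraries. CASP2 had 0.22004, 0.230001 and 0.219 FPKM in cop1-6, against 7.08, 7.56 and 6.69 FPKM in wild type and ESB1, a dirigent protein of the strip, had 1.84, 2.06 and 1.87 FPKM in cop1-6, against 13.7, 14.7 and 12.2 FPKM in wild type. Of 14 tested members of the wider list of root endodermis and cap genes, which holds these 7, 11 fell and 2 rose. Its summed level averaged 993 FPKM in cop1-6 and 1489 FPKM in wild type, most of it from PYK10, a beta-glucosidase of roots, which had 899, 835 and 909 FPKM in cop1-6, against 1201, 1435 and 1292 FPKM in wild type (log2 fold change -0.57). Its call was lost on leaving out any 1 library except wild-type replicate 1 (log2 fold changes -0.59 to -0.50). Of the upstream factors, SHR fell, with 6.596, 8.89 and 6.63 FPKM in cop1-6, against 13.2, 14.5 and 15.1 FPKM in wild type, and SCR rose, with 26.4, 27.4 and 25.2 FPKM in cop1-6, against 18.5, 15.03 and 18.7 FPKM in wild type. UPB1, a bHLH factor of the root transition zone, also rose, with 6.92, 8.75 and 11.2 FPKM in cop1-6, against 1.89, 2.81 and 1.19 FPKM in wild type. BGLU21, a beta-glucosidase of roots, had 0.581, 0.417 and 0.547 FPKM in cop1-6, against 5.26, 14.9 and 11.9 FPKM in wild type. Root hair markers were low in both groups, summing to 0.342 to 0.653 FPKM in cop1-6 and 1.07 to 4.78 FPKM in wild type, and root cap markers were near 0 in both. The share of root in a seedling was not measured, and its part in these values was not tested.

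Xylem and secondary wall genes fell without exception among those called. Of 25 tested members 19 fell and none rose (median log2 fold change -0.82), and 14 fell without cop1-6 replicate 3. Among the 25, 3 were under 1 FPKM in all cop1-6 libraries and passed the minimum only through other libraries. XCP1 and XCP2, proteases of dying vessel cells, had 4.33, 4.68 and 3.1997 FPKM in cop1-6, against 13.1, 14.1 and 11.5 FPKM in wild type for XCP1 and 20.9, 21.3 and 17.9 FPKM in cop1-6, against 41.8, 43.7 and 42.1 FPKM in wild type for XCP2. FLA11, a fasciclin-like protein of secondary walls, had 9.61, 9.598 and 9.33 FPKM in cop1-6, against 25.8, 28.9 and 23.99 FPKM in wild type. The 3 secondary wall cellulose synthases CESA4, CESA7 and CESA8 were called lower, whereas the vessel regulators VND6 and VND7 were under 1 FPKM in both groups. The summed vessel markers were 29.0 to 34.8 FPKM in cop1-6 and 69.1 to 75.7 FPKM in wild type. Of 4 phloem markers 2 were lower, with sums of 147.8 to 151.6 FPKM in cop1-6 and 191.3 to 216.1 FPKM in wild type, and of 7 stomatal lineage markers EPFL9 alone was lower. Lignin genes split. Enzymes of precursor synthesis were among those that rose, such as 4CL3 with 29.3, 26.2 and 25.6 FPKM in cop1-6, against 6.11, 4.25 and 5.7997 FPKM in wild type, PAL2 with 101, 85.3 and 93.9 FPKM in cop1-6, against 39.7, 45.9 and 42.8 FPKM in wild type and ATCAD4 with 138, 129 and 153 FPKM in cop1-6, against 54.9, 59.4 and 54.5 FPKM in wild type. Genes of lignin polymerization were among those that fell, such as the laccase LAC11 with 2.66, 3.07 and 2.03 FPKM in cop1-6, against 8.71, 9.38 and 7.79 FPKM in wild type, and the peroxidase AT5G66390 with 0.879, 0.477 and 1.04 FPKM in cop1-6, against 12.5, 10.4 and 10.9 FPKM in wild type. The dirigent protein gene DIR6 also fell, with 3.02, 3.26 and 2.09 FPKM in cop1-6, against 10.6, 13.1 and 15.6 FPKM in wild type. In all, 11 of 26 lignin genes rose and 7 fell, and the list shares PAL and 4CL genes with flavonoid synthesis. Class III peroxidases had 5 of 38 members higher and 15 lower, 7 of the 38 being under 1 FPKM in all cop1-6 libraries.

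Seed transcripts were present in cop1-6 at low levels. Storage proteins and oleosins are made in the embryo and are normally silent in seedlings. The 10 seed markers summed to 14.5 to 34.9 FPKM in the cop1-6 libraries and 0.307 to 5.15 FPKM in the wild-type libraries, and 7 of the 10 were listed at 0 in all wild-type libraries. The storage protein gene CRA1 had 6.21, 14.02 and 5.75 FPKM in cop1-6, against 1.16, 0.109 and 0.106 FPKM in wild type (log2 fold change 2.70 ± 0.34 SE, adjusted p = 3.8e-05). Of 12 tested members of the wider seed list (32 measured), 10 rose and 1 fell. Among the 12, 2 were under 1 FPKM in all wild-type libraries and passed the minimum only through other libraries. The number that rose was 5 without cop1-6 replicate 1, 6 without cop1-6 replicate 2 and 8 without cop1-6 replicate 3. The gene that fell was LEA14, a late embryogenesis gene, with 11.2, 12.3 and 13.6 FPKM in cop1-6, against 21.5, 23.47 and 16.04 FPKM in wild type, a call lost without cop1-6 replicate 1 or wild-type replicate 1 or 2 (log2 fold changes -0.62 to -0.56). Ungerminated seed in a sample was not recorded, and its part in these values was not tested.

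Several cytokinin response genes fell. Type-A response regulators are induced by cytokinin within minutes and damp its signalling. Of 33 tested cytokinin genes 10 fell (30.3%, against 20.5% of all genes), and 5 of the 10 were type-A regulators. In the same list 3 rose (9.09%, against 10.9% of all genes), or 5 without wild-type replicate 2. RR5 had 1.57, 2.32 and 2.603 FPKM in cop1-6, against 9.02, 9.33 and 7.88 FPKM in wild type (log2 fold change -1.63 ± 0.14 SE, adjusted p = 1.86e-06), ARR6 had 4.94, 3.07 and 3.81 FPKM in cop1-6, against 12.9, 10.7 and 12.2 FPKM in wild type, ARR7 had 7.29, 5.47 and 6.63 FPKM in cop1-6, against 14.98, 17.95 and 16.5 FPKM in wild type, RR16 had 1.17, 0.671 and 1.05 FPKM in cop1-6, against 4.34, 3.33 and 5.08 FPKM in wild type and ARR4 had 33.9, 25.2 and 31.9 FPKM in cop1-6, against 55.2, 55.96 and 57.3 FPKM in wild type. Every cop1-6 library was below every wild-type library in all 5, which are members already called lower. Of all tested genes 57.2% showed no overlap of the groups, in either direction. RR3, of the same type, was not called (19.4, 14.8 and 17.82 FPKM in cop1-6, against 18.6, 15.3 and 19.7 FPKM in wild type). The receptor gene WOL fell (log2 fold change -0.61; -0.55 and not called without wild-type replicate 1) and the receptors HK2 and HK3 were not called. LOG1, which releases active cytokinin, rose (log2 fold change 0.64). Ethylene genes had 7 of 26 members lower (26.9%, against 20.5% of all genes) and none higher, with 15 lower under the deposited scaling alone. Without cop1-6 replicate 1 the counts were 3 and 1, and without cop1-6 replicate 2 there was 1 higher. The genes that fell include the master factor EIN3 with 42.4, 42.8 and 45.01 FPKM in cop1-6, against 67.999, 66.5 and 67.98 FPKM in wild type, and EBF2, which targets it for degradation, with 34.5, 38.2 and 46.3 FPKM in cop1-6, against 71.9, 74.2 and 68.03 FPKM in wild type. In abscisic acid genes, ABA1, zeaxanthin epoxidase, rose, with 176, 148 and 148 FPKM in cop1-6, against 45.6, 41.1 and 46.6 FPKM in wild type, and the receptors PYL4 and PYL6 rose with log2 fold changes of 0.99 and 1.24. The whole list of abscisic acid synthesis and response had 7 of 38 members higher and 14 lower. Among those that fell, ERD14, a dehydrin, averaged 32.2 ± 1.14 FPKM in cop1-6, against 91.05 ± 8.36 FPKM in wild type (SD, n = 3 each), and RD22 had 40.5, 32.2 and 38.04 FPKM in cop1-6, against 93.3, 107 and 95.7 FPKM in wild type. Of gibberellin-regulated genes named after their values were seen, GASA4 had a log2 fold change of -2.32, GASA6 of -2.21 and AT2G14900 of -2.51. Gibberellin genes were not counted as a list, so these values do not describe that response as a whole.

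The largest single changes outside the light and auxin sets were in genes of varied function. AT2G27420, a papain-type cysteine protease gene, had 45.4, 39.5 and 36.02 FPKM in cop1-6, against 0.537, 0.558 and 0.547 FPKM in wild type, a ratio of means of 73.7 (log2 fold change 4.73 ± 0.12 SE, adjusted p = 2.04e-10). THI2.2, a thionin, had 91.2, 78.1 and 69.2 FPKM in cop1-6, against 2.89, 2.06 and 2.85 FPKM in wild type. AT5G42760, a predicted leucine carboxyl methyltransferase, had 84.1, 63.8 and 68.7 FPKM in cop1-6, against 3.76, 2.798 and 3.15 FPKM in wild type, and the uncharacterized AT2G15020 had 57.6, 64.1 and 47.7 FPKM in cop1-6, against 2.401, 2.06 and 2.904 FPKM in wild type. AT1G55960, a lipid-binding START-domain type gene, was more abundant, with 205, 173 and 166 FPKM in cop1-6, against 14.97, 15.1 and 16.3 FPKM in wild type (log2 fold change 3.46 ± 0.09 SE, adjusted p = 2.26e-10). In each of these 5 genes the lowest cop1-6 library was more than 10 times the highest wild-type library. In the other direction, AT1G12080, a vacuolar calcium-binding protein-like gene, had 5.76, 6.16 and 6.97 FPKM in cop1-6, against 132, 116 and 96.9 FPKM in wild type (log2 fold change -3.98 ± 0.13 SE, adjusted p = 1.14e-09). AT1G52190, a nitrate and peptide family transporter, had 7.002, 6.27 and 6.94 FPKM in cop1-6, against 71.6, 81.6 and 66.5 FPKM in wild type, MLP28 had 13.9, 12.4 and 12.3 FPKM in cop1-6, against 98.6, 115 and 97.3 FPKM in wild type and CCL had 61.5, 75.8 and 62.5 FPKM in cop1-6, against 489.9, 487 and 490.1 FPKM in wild type. SAG21, a small late embryogenesis-type protein of mitochondria, had 379, 459.8 and 467 FPKM in cop1-6, against 2242, 2562 and 2141 FPKM in wild type, and DYL1, a dormancy-associated gene, had 11.3, 19.4 and 12.2 FPKM in cop1-6, against 96.8, 107 and 92.3 FPKM in wild type. All of these fell. Genes of largest change were taken only from those called without overlap of the groups, so that separation was a condition of naming them. Of all tested genes 57.2% showed no overlap, in either direction.

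Few genes went between a listed 0 and 1 FPKM or more in every library. MC8, a metacaspase, was listed at 0 in all wild-type libraries and had 1.37, 1.28 and 3.002 FPKM in cop1-6. CASP5, UMAMIT4, an amino acid carrier of the nodulin MtN21 family, and AT5G46900, a lipid transfer family gene, were listed at 0 in all cop1-6 libraries. UMAMIT4 had 1.44, 1.04 and 1.93 FPKM and AT5G46900 had 1.82, 9.67 and 11.05 FPKM in wild type. These 4 genes were named after their values were seen.

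Few genes of the basic machinery of growth were called under all 3 scalings, and the counts depended on the scaling. Of 283 ribosomal proteins of any compartment 9 were higher and 17 lower, against 10.9% and 20.5% of all genes. The number higher was 5 without cop1-6 replicate 1. Pentatricopeptide repeat proteins, which process organelle RNA, had 17 of 237 higher and 10 lower, and the number lower was 4 without cop1-6 replicate 1 or wild-type replicate 3 and 5 without wild-type replicate 1. DNA replication had 1 of 45 higher and 2 lower (1 without cop1-6 replicate 3 or wild-type replicate 1), and proteasome subunits had none of 30 higher and 3 lower (1 without cop1-6 replicate 1 or 2 or wild-type replicate 1). With the deposited scaling alone 120 ribosomal proteins, 34 pentatricopeptide repeat proteins, 11 replication genes and 15 proteasome genes were lower. With median-of-ratios alone 54, 46, 3 and 3 were higher. The median log2 fold changes were -0.21 for ribosomal proteins, -0.09 for pentatricopeptide repeat proteins, -0.19 for DNA replication and -0.27 for the proteasome, against -0.21 for all tested genes.

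Position in the genome gave 2 further runs of 3 neighbouring genes, both of genes that fell at least 2-fold. On chromosome 1 between 10304507 and 10308246 lie SAUR63, AT1G29450 and AT1G29460, auxin-responsive SAUR genes that are near copies, with log2 fold changes of -1.32, -1.22 and -1.37. On chromosome 4 between 6826587 and 6836588 lie the dirigent-like genes AT4G11190 and AT4G11210 and the uncharacterized AT4G11211, with log2 fold changes of -2.33, -2.38 and -2.77. In all, 47 pairs of neighbouring genes changed at least 2-fold the same way. Without cop1-6 replicate 2 there were 5 runs of 3 or more in place of 3. The share of genes at least 2-fold higher ranged from 2.37% to 3.04% and that at least 2-fold lower from 2.86% to 3.49% over the 5 chromosomes. It moved more with transcript length. In the fifth of genes with the shortest exons together (up to 1148 bases) 3.27% were at least 2-fold higher and 5.58% lower, and in the fifth with the longest (from 2527 bases) 1.41% and 1.11%.

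The FPKM sum of the cop1-6 libraries differed from that of the wild-type libraries by -75704 on average, which bears on every deposited value. CAB1, a chlorophyll a/b-binding protein, made 11.9% of that net difference, with 6444, 7419.5 and 6283 FPKM in cop1-6, against 15106, 18027 and 13940.1 FPKM in wild type. SAG21 made 2.48%, the Rubisco small subunit RBCS1A, which was not called, 1.804%, TIP2 1.55% and DELTA-TIP 1.32%. CAB1 has near-identical copies, so its share is uncertain.

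The genes that set cop1-6 replicate 3 apart included many of defence. Of the 283 genes, 164 were also at least 2 times every wild-type library, and 52 were called higher in cop1-6, 38 of them at least 2-fold. Members of the salicylate and camalexin list made up 12 of its 23 tested (52.2%) and WRKY factors 11 of 41 (26.8%), against 1.66% of all tested genes. AT4G12490, AT4G12500, EARLI1 and AZI1 are lipid transfer genes side by side on chromosome 4, similar copies of which AZI1 is known for systemic immunity. AT4G12490 had 31.7, 11.4 and 301 FPKM in cop1-6, against 2.998, 3.29 and 5.697 FPKM in wild type, and EARLI1 had 132, 60.7 and 709 FPKM in cop1-6, against 74.4, 49.4 and 102 FPKM in wild type. AZI1 had 274, 147 and 1076 FPKM in cop1-6, against 186, 160.1 and 241 FPKM in wild type. The first was called higher (log2 fold change 3.35 ± 0.80 SE, adjusted p = 0.00403) and was still called without replicate 3, with a log2 fold change of 2.05. The others were not called. EARLI1, AZI1 and AT4G12500 were called higher once cop1-6 replicate 2 was left out, with log2 fold changes of 2.07, 1.49 and 3.35. The peroxidase AT5G64120 had 40.3, 32.8 and 320.4 FPKM in cop1-6, against 7.82, 13.2 and 10.8 FPKM in wild type, and GSTF6, a glutathione transferase, had 54.4, 39.02 and 349.9 FPKM in cop1-6, against 13.3, 22.3 and 19.6 FPKM in wild type, and both were also called without replicate 3. The chitinase AT2G43620 was not called, with 2.999, 1.704 and 68.6 FPKM in cop1-6, against 3.99, 5.06 and 6.54 FPKM in wild type, and without replicate 3 it was called lower (log2 fold change -0.89). Genes of this paragraph were named after their values were seen. The labels record no treatment or date for this library.

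**Figure D5:**
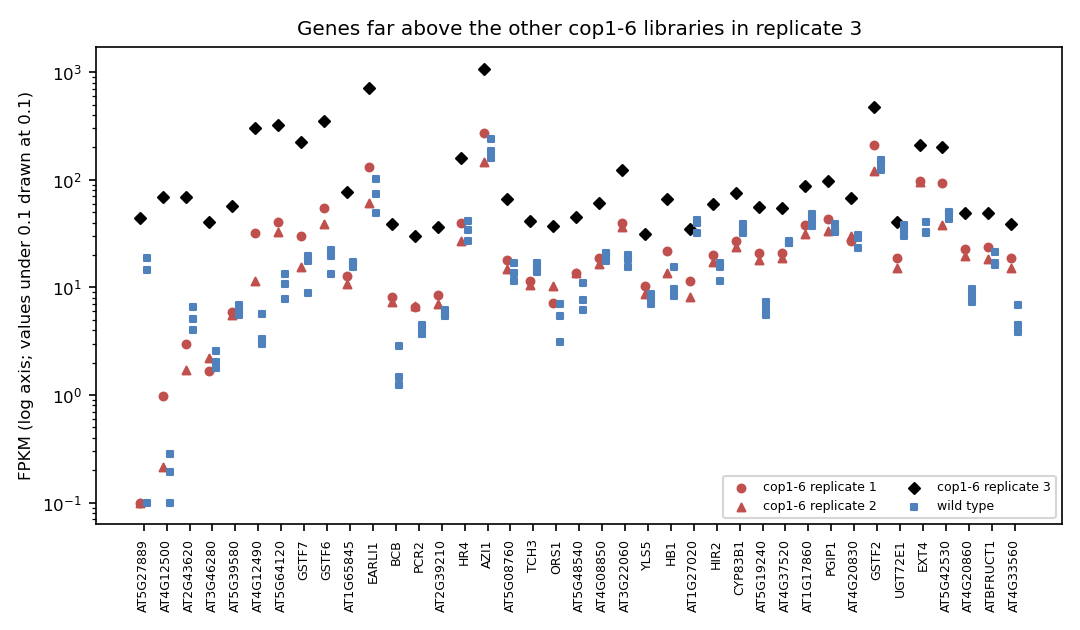
FPKM of the 39 genes at least 2 times as high in cop1-6 replicate 3 (black diamonds) as in both other cop1-6 libraries (red) and at 30 FPKM or more there, with the wild-type libraries in blue, on a log axis. AT4G12500 is at 69.0 FPKM in replicate 3 and at 0.986 and 0.215 FPKM in replicates 1 and 2.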

How the data were processed

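Total RNA of whole seedlings was sequenced on an Illumina sequencer, and the authors deposited 1 FPKM value per gene and library, per the file headers. Tools listed in the submitters' processing notes are DESeq 1.18.0, Bowtie2, TopHat, Cufflinks, HISAT2 2.2.1.0 and Trimmomatic 0.36, with the genome build TAIR10 and without their role or order, and strand use was not given in the sources used here. Of 26997 entries 13 named no gene and were left out, with at most 0.00203% of a library's FPKM. The test covered 17075 of 26984 genes, those that reached 1 FPKM in 3 or more of the 9 libraries. FPKM are not counts, so no count model was used: limma 3.58.1 in R 4.3.3 was run on log2(FPKM + 1) with a trend of the variance on level, for all 9 libraries in 3 groups, and p-values were adjusted by Benjamini-Hochberg over all tested genes. Fold changes are differences on the log2(FPKM + 1) scale, which understates changes of low genes. Data were also simulated (16838 genes), with 50 genes changed at each size and all of these above a set expression level. Of genes changed 1.25-fold 8% were recovered, 58% at 1.5-fold, 82% at 2-fold and 100% at 4-fold, and 7.46% of calls were false. The simulation had no shift between libraries, no library that stood apart, and far fewer changed genes than were called here. These rates therefore do not measure the accuracy of the real calls.

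The genes of interest and the gene lists, 38 by symbol (1394 of 1536 entries matched) and 53 families by annotation words, were chosen with earlier results of these data known. The genes named were, for each list or family, the called members of lowest adjusted p, at most 4 in each direction, the 15 highest and 15 lowest called log2 fold changes outside the large known sets at a mean of at least 10 FPKM with no overlap, all genes of runs, and the 5 genes with the largest shares of the difference in FPKM sum. Not every gene so named is reported here. Other list members are given with their values, and genes outside this rule are said to have been named after their values were seen. Coordinates and promoters come from RefSeq's TAIR10.1 assembly and were joined by locus. Tables were made with Python 3.11.15, pandas 2.3.3 and pysam 0.24.0, and figures with matplotlib 3.10.9. Alternatives were the single scalings, the 6 libraries alone, a pseudocount of 0.1, other filters on low values, the replicate number as a block and leaving out each library.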

Additional observations from a re-analysis of the deposited data

How the results depend on the processing

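The balance of directions depends on the scaling. With median-of-ratios alone 3804 genes were higher in cop1-6 and 676 at least 2-fold higher, with equal totals alone 2982 were higher, and with the deposited values alone 6583 were lower and 892 at least 2-fold lower. A pseudocount of 0.1 gave 816 genes at least 2-fold lower. The construction shows part of the cause, since a call in the main count has to pass under each scaling. Leaving out 1 library at a time gave 1490 to 1883 genes higher, 2832 to 3344 lower, 380 to 464 at least 2-fold higher, 465 to 585 at least 2-fold lower, 1200 to 1447 called members of the lists and families (1476 with all libraries) and 2 to 5 runs of neighbouring genes. Deviations from the group means of libraries with the same replicate number correlated at 0.125, 0.00609 and 0.0334. Those of libraries with different numbers correlated at -0.162 to 0.111. Deviations within a group offset one another, so these values cannot show whether the numbers pair the samples. With the replicate number as a block, 1761 genes were higher, 3238 lower, 444 at least 2-fold higher and 521 at least 2-fold lower. Of 184 named genes 166 were called, and none of the called genes changed direction under the alternatives run. The block ended the call of 3 of them and no filter on low values that of 6, while leaving out a library kept 156 to 161 calls, genes that could then not be tested counting as lost. The DESeq2 alternative was not run because the values are FPKM. Depth is unknown, so no limit from counts can be given for genes listed at 0.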

Other observations

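Lipases of the GDSL family, a large group of secreted esterases, were among the families with large changes in both directions. Of 46 tested members 8 were higher in cop1-6 than in wild type, 4 of them at least 2-fold. In the same family 19 were lower, 8 of them at least 2-fold. Of all genes 10.9% were higher and 20.5% lower. The number of lipases higher was 5 without cop1-6 replicate 1 or replicate 3. With median-of-ratios alone 12 were higher, and with the deposited scaling alone 27 were lower. AT3G16370 had 139, 123 and 121 FPKM in cop1-6, against 429, 460.4 and 432 FPKM in wild type, and ESM1, which modifies the products of glucosinolate breakdown, had 108, 90.2 and 119 FPKM in cop1-6, against 298, 326 and 269 FPKM in wild type. AT1G29670 had 25.04, 26.9 and 34.1 FPKM in cop1-6, against 99.4, 109 and 121 FPKM in wild type. In the other direction RXW8 had 19.02, 16.6 and 16.9 FPKM in cop1-6, against 5.39, 4.99 and 6.62 FPKM in wild type and AT3G48460 had 39.8, 35.5 and 30.2 FPKM in cop1-6, against 13.1, 12.7 and 13.6 FPKM in wild type. The groups did not overlap for any of these 5 genes.

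Phosphate starvation genes had 9 of 26 tested members lower (34.6%, against 20.5% of all genes) and 2 higher (7.69%, against 10.9%). Their median log2 fold change was -0.27, against -0.21 for all tested genes. The number lower was 4 without wild-type replicate 2. With median-of-ratios alone 6 were higher. SRG3, a glycerophosphodiester phosphodiesterase, had 6.29, 7.26 and 7.56 FPKM in cop1-6, against 27.04, 24.2 and 12.5 FPKM in wild type, and MGD2, a galactolipid synthase induced by low phosphate, had 1.73, 2.04 and 1.29 FPKM in cop1-6, against 5.53, 4.78 and 4.61 FPKM in wild type. The purple acid phosphatases moved apart, PAP10 with 29.3, 23.4 and 35.9 FPKM in cop1-6, against 15.3, 17.7 and 16.4 FPKM in wild type and PAP12 with 15.2, 11.3 and 14.7 FPKM in cop1-6, against 25.7, 25.29 and 20.6 FPKM in wild type.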
